A study of Mus musculus with 16 samples.

Results

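The genes described here are 39 genes of mitochondrial fatty acid oxidation and ketone body use, taken by symbol from a list that names them. The rule of the list holds no measured value, but the list was chosen with earlier results of these data known. The shares of members called are therefore set beside those of all genes as description only. All 39 were present among the 52338 genes of the kidney count table, and all 39 passed the filter on low counts that left 17731 genes. The kidneys came from mice labelled C57BL6 on a high-fat diet and were taken at day 15 from the treatment. The mice formed 4 groups with 4 libraries each: FAN with ad libitum feeding, FAN with time-restricted feeding, vehicle with ad libitum feeding and vehicle with time-restricted feeding. FAN is not written out in the labels, though each column of counts is headed with the word folic. The study asked how restricting the hours of feeding bears on injured kidneys. The labels do not say whether libraries came from separate animals, so p-values measure the spread between these samples, which may in part be technical. Library numbers are those of the column names, and values are listed in the order of these numbers, which is 6, 7, 10 and 12 for FAN ad libitum, 6, 10, 11 and 12 for FAN time-restricted, and 1 to 4 for each vehicle group.

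Mitochondrial β-oxidation shortens fatty acids in repeated cycles that yield acetyl-CoA and reduced electron carriers. Fatty acids are taken up, bound in the cytosol and activated to acyl-CoA, and long chains then cross the inner mitochondrial membrane as carnitine esters. Inside, acyl-CoA dehydrogenases pass electrons through the electron transfer flavoprotein to the respiratory chain, and hydratase, hydroxyacyl dehydrogenase and thiolase complete the cycle. Ketone bodies made by the liver are converted back to acetyl-CoA by Bdh1, Oxct1 and Acat1. The proximal tubule, the main reabsorbing segment of the nephron, meets most of its energy need by fatty acid oxidation and uses little glucose. Some of the 39 genes encode proteins outside mitochondria: the fatty acid transporters Slc27a1, Slc27a2 and Slc27a4, the binding proteins Fabp1 and Fabp3, and cytosolic thioesterases such as Acot1 and Acot12.

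Levels are given in CPM, counts relative to a common library total, after TMM scaling, a scaling that equalises the bulk of genes between libraries. Total counts ranged from 12450812 to 33976660 per library, at which a count of 0 allows up to 0.0883 to 0.241 CPM, and every member was above 0 in all 16 libraries. Log2 changes, standard errors (SE) and adjusted p-values come from edgeR's two-sided quasi-likelihood test with Benjamini-Hochberg adjustment over all 17731 genes, and a gene is called where the adjusted p is below 0.05. FAN against vehicle was compared under each regimen, time-restricted against ad libitum feeding was compared in FAN and in vehicle, and the interaction is the difference between both feeding changes, FAN minus vehicle. Each group enters 2 of the group comparisons and also the interaction. Values of the comparisons are therefore set side by side and not correlated.

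Summed over the 39 genes, the level was 16125 ± 1225 CPM (SD, n = 4) in vehicle ad libitum and 18796 ± 584 CPM in vehicle time-restricted libraries. It was 4435 ± 610 CPM in FAN ad libitum and 12013 ± 1109 CPM in FAN time-restricted libraries. No library of one group reached the range of another: the sums ran from 3677 to 4961 CPM in FAN ad libitum, 11147 to 13595 CPM in FAN time-restricted, 15031 to 17880 CPM in vehicle ad libitum and 18104 to 19530 CPM in vehicle time-restricted kidneys. Slc27a2, a fatty acid transporter and very-long-chain acyl-CoA synthetase of the proximal tubule, made up 38.1% of the vehicle ad libitum sum. Without it the FAN ad libitum sum was 32.9% and the FAN time-restricted sum 83.4% of the vehicle ad libitum sum, against 27.5% and 74.5% with it. With library size scaling in place of TMM, the sums were 6352 CPM in FAN ad libitum and 11011 CPM in FAN time-restricted libraries, against 14268 and 16104 CPM in the vehicle groups, which narrows the distance of FAN ad libitum from vehicle ad libitum kidneys. The FAN ad libitum libraries fell into pairs: over all genes, the chi-square per gene was 21.03 between libraries 6 and 7 and 26.1 between 10 and 12, but 144 to 154 across these pairs, against 16.1 to 80.3 between libraries within each of the other groups. Each column name carries an S number, taken here as a sample sheet position, although no label says what it marks. Split at gaps in these numbers, libraries 6 and 7 stand in the lowest, here called earliest, range. They had 7.29% and 6.94% of counts from mitochondrial DNA. Libraries 10 and 12 stand in the highest, here called latest, range with 14.8% and 12.1%. The number of members called is given below also without 6 and 7. The member sums of these pairs overlapped, at 4896 and 4208 CPM in libraries 6 and 7 and at 4961 and 3677 CPM in 10 and 12.

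Per kilobase of exon, Slc27a2 also stood highest in vehicle ad libitum kidneys at 1638 ± 167 CPM per kb (SD, n = 4). Oxct1 at 351 ± 33.8, Ech1 at 337 ± 37.0, Acot13 at 329 ± 41.4, Acat1 at 292 ± 19.7, Acadm at 287 ± 55.9 and Acadl at 269 ± 36.4 CPM per kb followed, and neighbours among these 6 differed by less than the larger of their SDs. The lowest levels were those of Fabp1, the liver-type fatty acid binding protein, at 1.11 ± 0.378 and Acacb at 2.11 ± 0.291 CPM per kb. Acadvl, which acts on very long chains, stood at 24.1 ± 1.46 CPM per kb, below Acadm for medium and Acadl for long chains.

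**Figure D1:**
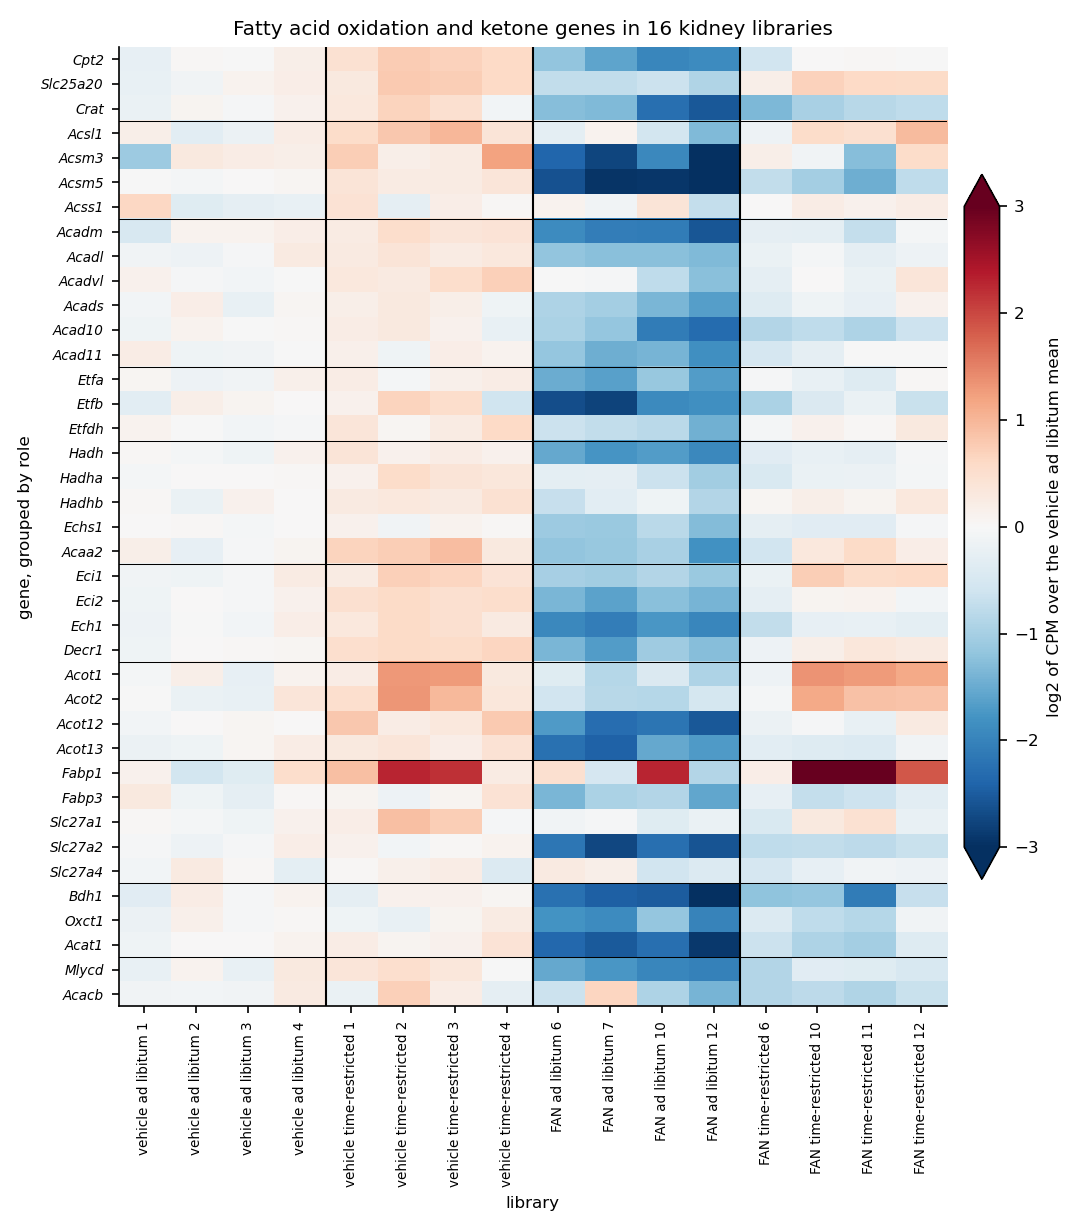
Log2 of CPM over the vehicle ad libitum mean for the 39 genes (rows, separated by role) in 16 libraries (columns, separated by group). FAN ad libitum columns are blue for nearly all genes, and Fabp1, Acot1 and Acot2 are red in vehicle time-restricted 2 and 3 and in FAN time-restricted 10 and 11.

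Under ad libitum feeding, FAN lowered 31 of the 39 genes and raised none. Among all genes tested, 28.6% were called lower and 32.1% higher in this comparison. The median log2 change was −1.33 for the 39 genes and 0.06 for all genes. The FAN ad libitum mean was below 50% of the vehicle mean for 26 genes and below 25% for 8, and the 39 genes had a median of 39.8%. In 31 genes the 4 FAN libraries all lay below the 4 vehicle libraries, a pattern seen in 25.9% of all genes. All 3 genes of the carnitine shuttle, all 3 of the electron transfer flavoprotein, all 5 hydratase, dehydrogenase and thiolase genes, all 4 for unsaturated chains and all 3 of ketone body use were lower. The 8 genes not called were Acsl1, Acss1, Acadvl, Acot1, Fabp1, Slc27a1, Slc27a4 and Acacb.

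Scaling decides where 0 lies in this comparison. With library size scaling in place of TMM, the median of all genes moved to 0.76 and that of the 39 genes to −0.64, so that the distance between both was −1.40 against −1.39 with TMM. In that setting 25 of the 39 genes were lower, and Acss1, Slc27a1 and Slc27a4 were higher (log2 changes of 0.66, 0.54 and 0.61, edgeR adjusted p = 0.00939, 0.0357 and 0.0142). Over all 17731 genes, 2070 were then called lower and 10823 higher. The share of called genes that were higher rose from 52.8% to 83.9%. Without FAN ad libitum 6 and 7, the FAN libraries of the earliest sample sheet positions, 34 of the 39 genes were lower. There 5128 of the 18334 genes tested were lower.

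The fall went along with that of proximal tubule markers. Of 28 such markers 22 fell and 1, the sulfate transporter Slc13a1, rose, with a median log2 change of −2.26, and none of the 28 was at 0 in any library. Their summed level was 11337 to 15942 CPM in FAN ad libitum, 57800 to 81271 CPM in FAN time-restricted, 73465 to 95158 CPM in vehicle ad libitum and 91838 to 95846 CPM in vehicle time-restricted kidneys. The 11 tubule injury markers were all higher, with a median of 4.52, and all 14 macrophage and dendritic cell markers were higher, with a median of 3.33. Erythrocyte markers fell in 6 of 6 tested, with a median of −5.28. The part of cell composition in the lower levels was not tested, and in bulk RNA fewer tubule cells and less RNA per cell cannot be told apart.

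Under time-restricted feeding FAN lowered 21 of the 39 genes and raised none, where 19% of all genes were lower. The median log2 change was −0.48, against 0.05 for all genes, and the FAN mean had a median of 71.7% of the vehicle mean. Scaled by library size, 67.2% of called genes were higher, in place of 56.3%, and 19 of the 39 genes were lower. Of all 17731 genes 2465 were then lower. Groups did not overlap in 18 genes, all lower in FAN, against 17.9% of all genes. Of the 31 genes lower under ad libitum feeding 20, or 64.5%, were also lower here, beside 57.7% of all genes lower under ad libitum feeding. Acacb was called lower here alone. The 3 ketone body genes and both malonyl-CoA genes were lower, while the 11 genes lower under ad libitum feeding alone were Slc25a20, Acsm3, Acads, Acad11, Etfa, Etfdh, Hadhb, Echs1, Acaa2, Eci1 and Acot2. Whether a gene differed between regimens rests on the interaction given further on, not on these calls. With the sample sheet position as a covariate, 11 genes were called lower, and the 10 lost were Cpt2, Acadm, Acadl, Acad10, Hadh, Hadha, Acot12, Fabp3, Oxct1 and Acacb. Over all 17731 genes this covariate took the number called lower from 3370 to 1949. The proximal tubule markers fell in 19 of 28 here, with a median of −0.87, and Slc13a1 rose.

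**Figure D2:**
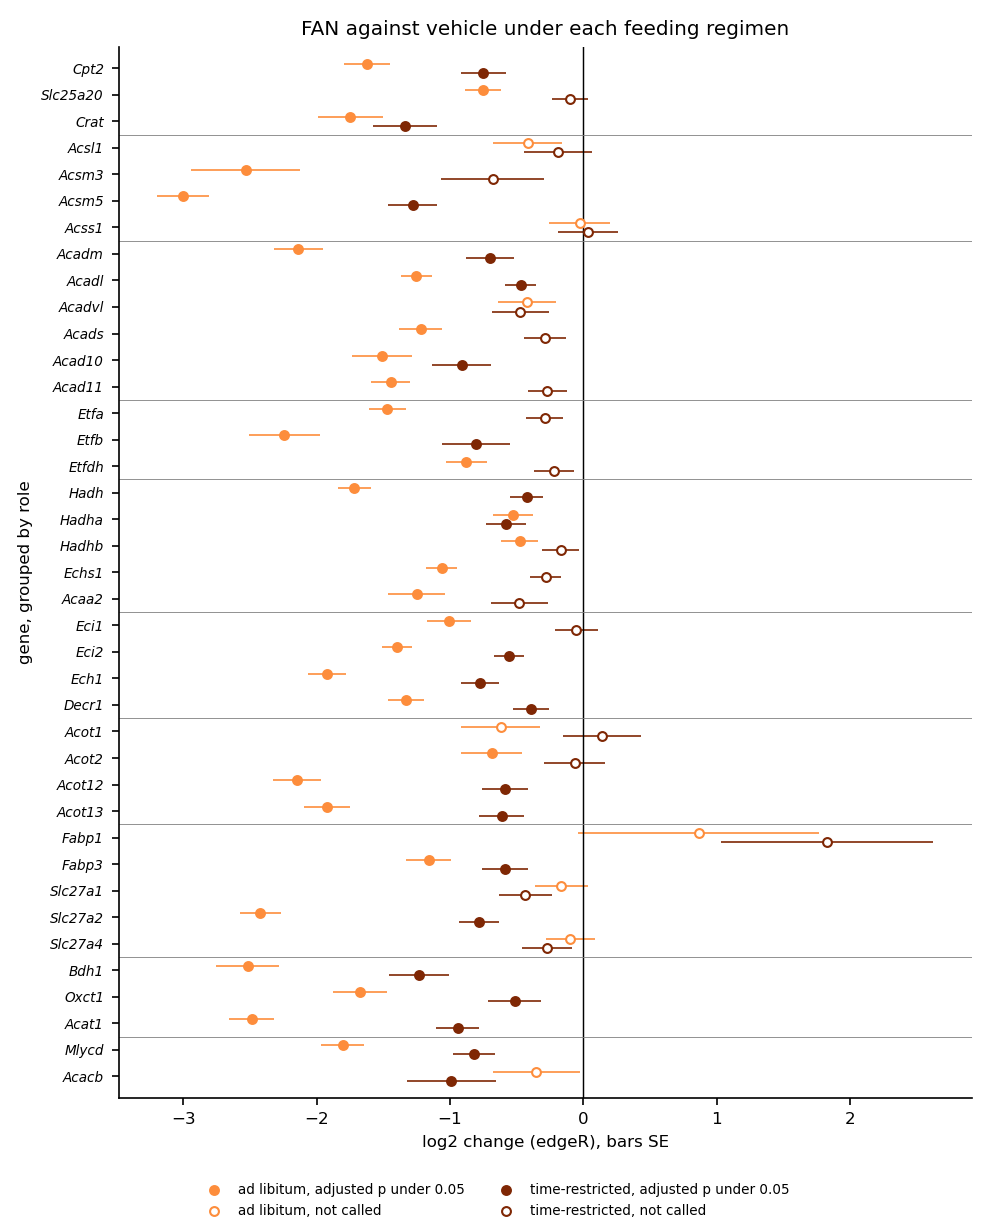
Log2 change of FAN against vehicle (x axis) with its SE for the 39 genes (y axis, by role), under ad libitum feeding (light) and time-restricted feeding (dark). Filled points are called. The ad libitum point lies further to the left for 34 of the 39 genes, the exceptions being Acacb, Acadvl, Hadha, Slc27a1 and Slc27a4.

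Within FAN kidneys, 33 of the 39 genes were higher with time-restricted than with ad libitum feeding and none was lower. Of all genes tested 17.9% were higher and 13.9% lower in this comparison. The median log2 change was 1.31 for the 39 genes and −0.02 for all genes, and the time-restricted mean had a median of 248% of the ad libitum mean. In 30 genes all 4 time-restricted libraries lay above all 4 ad libitum libraries, as in 15.7% of all genes. The 6 genes not called were Acss1, Acadvl, Hadha, Slc27a1, Slc27a4 and Acacb. Without FAN ad libitum 6 and 7, 34 genes were higher of 2426 called higher among 18334 tested. With library size scaling the median of all genes was −0.67 and that of the 39 genes 0.65, 26 genes were higher, and 2, Slc27a4 and Acacb, were lower. Of all 17731 genes 990 were then higher and 10512 lower. The share of called genes that were higher was 8.61% in place of 56.4%. Proximal tubule markers rose in 22 of 28, with a median of 1.49, and transcripts of mitochondrial DNA made up 10.3% ± 3.83 (SD, n = 4) of counts in FAN ad libitum and 24.9% ± 2.4 in FAN time-restricted kidneys, against 20.3% ± 2.32 and 19.8% ± 1.35 in the vehicle groups. Tubule injury markers fell in 3 of 11 (Lcn2, Clu and Prom1) and macrophage and dendritic cell markers in 12 of 14, and the part of either in the rise was not tested. With the latest sheet positions alone (FAN ad libitum 10 and 12 against FAN time-restricted 10, 11 and 12) the median of the 39 genes was 1.46.

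In vehicle kidneys edgeR called none of the 39 genes and none of the 17731 genes (0% of all) for feeding. All 39 log2 changes were above 0, with a median of 0.33, where 47.5% of all genes were above 0 and the median was −0.01. At an unadjusted p below 0.05 there were 18 of the 39 genes, all higher, against 6.45% of all genes in either direction. In 15 genes the 4 time-restricted libraries lay above the 4 ad libitum libraries, against 2.85% of all genes: Cpt2, Slc25a20, Acsl1, Acsm5, Acadm, Acadvl, Hadha, Hadhb, Acaa2, Eci1, Eci2, Ech1, Decr1, Acot1 and Acot12. Over all genes tested, DESeq2 called 41 higher and 14 lower and limma voom 29 higher and 6 lower. Each called 3 members, Slc25a20, Eci2 and Decr1, whose edgeR log2 changes were 0.62, 0.52 and 0.57 (edgeR adjusted p = 0.186, 0.186 and 0.23). Adipocyte markers summed to 186 to 626 CPM in ad libitum and 138 to 1105.5 CPM in time-restricted vehicle kidneys, with 5 of 10 at 0 in some library, Adipoq and Plin1 among them, and their part was not tested. The ketone body genes had small values in vehicle kidneys, log2 changes of 0.02 for Bdh1, 0.01 for Oxct1 and 0.22 for Acat1.

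**Figure D3:**
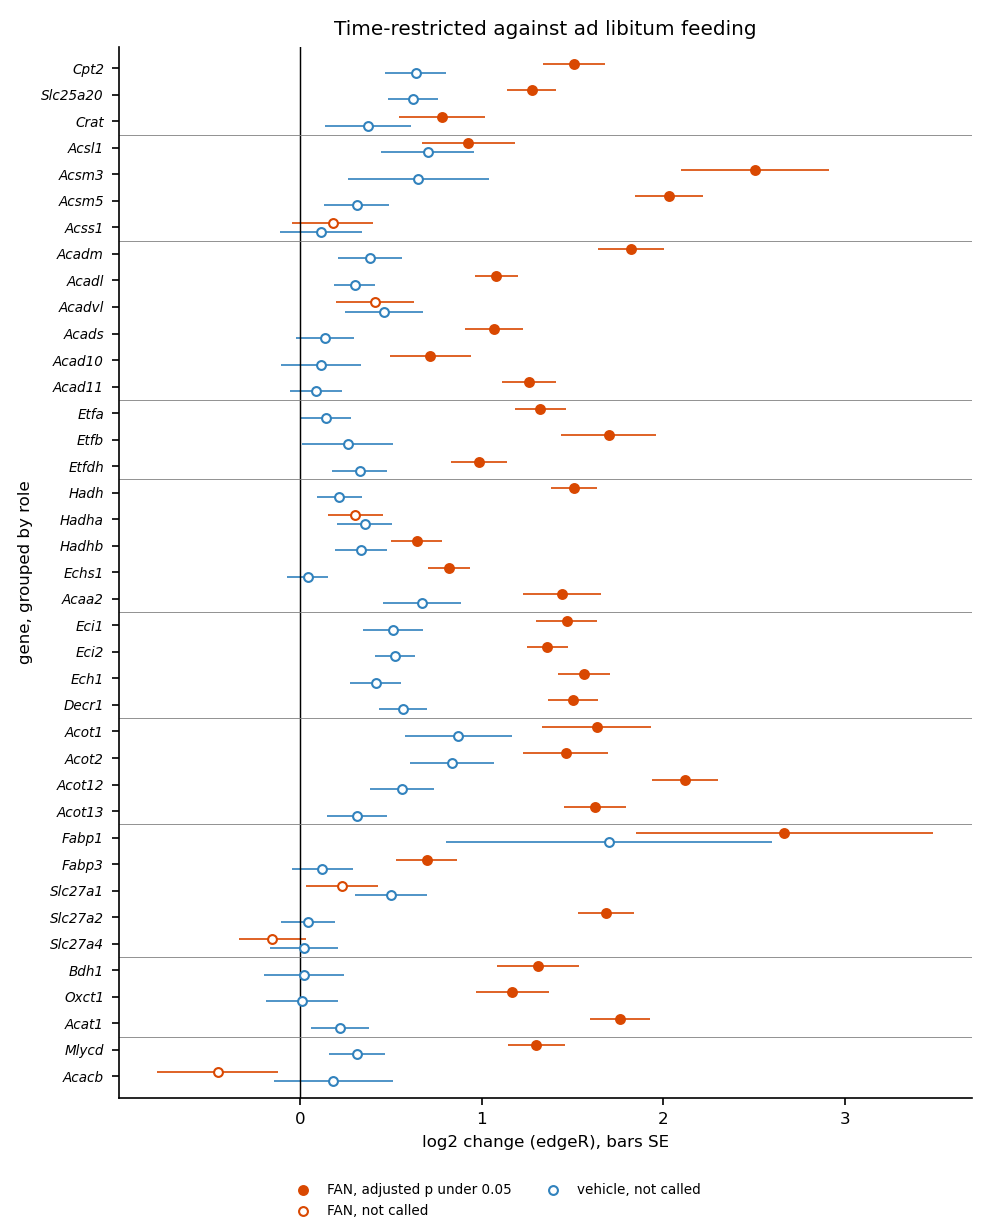
Log2 change of time-restricted against ad libitum feeding (x axis) with its SE for the 39 genes (y axis, by role), in FAN (orange) and vehicle (blue) kidneys. Filled points are called: 33 genes in FAN and none in vehicle, where all 39 points lie above 0.

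The feeding change was larger in FAN than in vehicle kidneys for 23 of the 39 genes by the interaction term, and smaller for none. Of all genes tested 7.76% had a called interaction above 0 and 1.4% one below 0. Leaving out FAN ad libitum 6 and 7 gave 23 called members of 1334 genes called above 0 among 18334. The median interaction was 0.87 for the 39 genes and 0.02 for all genes. All 4 genes for unsaturated chains and all 3 ketone body genes were among the 23, but only Slc27a2 of the 5 uptake and binding genes. The smallest adjusted p was that of Slc27a2, and the largest interactions were those of Acsm3, Acsm5 and Slc27a2. With library size scaling 10 of the 39 genes were called above 0 and 3 below 0, beside 504 and 6127 of all 17731 genes. The median was then 0.27 for the 39 genes and −0.57 for all genes, and 7.60% of called genes were above 0 in place of 84.7%. Without FAN time-restricted 6 the median was 1.01. Proximal tubule markers had a called interaction above 0 in 17 of 28, with a median of 1.25.

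Many of these genes are targets of PPAR-alpha, a fatty acid receptor of the nucleus that binds paired half-sites next to genes, and of the estrogen-related receptors. RefSeq promoters on GRCm38.p6, which run from 250 bases before to 50 bases after a transcript start, were at hand for 34 of the 39 genes, as 38 promoters. The PPAR response element, a pair of AGGTCA half-sites with any letter N between, was searched on both strands, and none of the 34 genes had a match of the second motif that could overlap it. With up to 2 mismatches it was found in 5 of the 34 genes (14.7%), against 4.4% of 27025 genes, and with up to 1 mismatch in 2 genes (5.88%), against 0.644%. An exact match was found in 0 of the 34 genes and 0.0481% of all genes. The half-site TCAAGGTCA of the estrogen-related receptors was found in none of the 34 and in 0.466% of all genes. Base content differed too, with a median of 59.5% G and C letters in the 38 promoters and 52.7% in all promoters. The part of base content in these shares was not tested. The 5 matches are shown because they are all that was found among the 34 genes searched, with capitals marking the matched letters on the printed strand. Windows are given in the direction of the gene and end before any annotated transcript start, except that of Slc25a20, where the match lies after the start and is given alone.
Fabp1, chr6:71199729-71199826, + strand: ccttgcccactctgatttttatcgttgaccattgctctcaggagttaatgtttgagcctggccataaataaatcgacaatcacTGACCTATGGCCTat
Acot12, chr13:91741371-91741511, + strand: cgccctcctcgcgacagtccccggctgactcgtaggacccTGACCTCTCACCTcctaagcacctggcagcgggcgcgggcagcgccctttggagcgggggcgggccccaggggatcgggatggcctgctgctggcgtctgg
Etfa, chr9:55512244-55512393, - strand: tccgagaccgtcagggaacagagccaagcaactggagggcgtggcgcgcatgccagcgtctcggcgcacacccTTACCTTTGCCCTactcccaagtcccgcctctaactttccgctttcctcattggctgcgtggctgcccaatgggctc
Echs1, chr7:140116477-140116571, - strand: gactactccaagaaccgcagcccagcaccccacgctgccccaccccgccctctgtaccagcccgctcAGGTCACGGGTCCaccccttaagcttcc
Slc25a20, chr9:108662142-108662154, + strand: AGGTGAAAGGTCG
Fabp1 and Acot12 had 1 mismatch and the other 3 genes 2. Fabp1 and Acot12 had feeding changes in FAN of 2.67 and 2.12 on the log2 scale, Etfa 1.32, Slc25a20 1.28 and Echs1 0.82, while in vehicle kidneys the values were 1.70, 0.56, 0.14, 0.62 and 0.04. The median feeding change of all 39 genes was 1.31 in FAN and 0.33 in vehicle kidneys. Whether matches go with feeding changes was not tested, and the Fabp1 call in FAN depended on single libraries, as given below. A match in letters is no measured binding.

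The carnitine shuttle moves long chains into mitochondria. Cpt2, on the inner membrane, turns acylcarnitine back into acyl-CoA (chr4:107903981-107923610, GRCm38). Cpt2 was 91.9, 69.6, 53.9 and 57.0 CPM in FAN ad libitum and 141, 210.2, 215 and 209 CPM in FAN time-restricted libraries. It was 178, 216, 208 and 236 CPM in vehicle ad libitum and 289, 356, 340.2 and 319 CPM in vehicle time-restricted libraries. FAN ad libitum libraries were all below every other library, and vehicle time-restricted libraries all above every other. FAN changed Cpt2 by −1.62 ± 0.17 (SE, adjusted p = 2.43e-07) under ad libitum and −0.75 ± 0.17 (SE, adjusted p = 0.00156) under time-restricted feeding, and feeding changed it by 1.51 ± 0.17 (SE, adjusted p = 4.08e-06) in FAN. Its interaction of 0.87 ± 0.24 (SE, adjusted p = 0.0266) was no longer called when any one of FAN time-restricted 10, 11 or 12, vehicle ad libitum 4 or vehicle time-restricted 1 was left out (adjusted p = 0.0531 to 0.0623).

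Slc25a20, the carrier that exchanges carnitine and acylcarnitine across the inner membrane, was 45.3, 44.8, 48.1 and 39.9 CPM in FAN ad libitum and 85.0, 121, 113 and 112 CPM in FAN time-restricted libraries. Vehicle libraries held 64.0, 69.9, 80.7 and 86.2 CPM under ad libitum and 92.3, 129.8, 126 and 114 CPM under time-restricted feeding. Each time-restricted group lay above the ad libitum group of the same treatment, and the time-restricted groups overlapped, with FAN time-restricted 6 the lowest of the 8 at 85.0 CPM. FAN lowered it under ad libitum feeding, by a log2 change of −0.76 ± 0.14 (SE, adjusted p = 0.000104), while the change of −0.10 ± 0.13 under time-restricted feeding was not called (adjusted p = 0.569). Feeding raised it by 1.28 ± 0.14 (SE, adjusted p = 2.31e-06) in FAN. The interaction of 0.65 ± 0.19 (SE, adjusted p = 0.0378) was not called when any one of 10 of the 16 libraries was left out (adjusted p up to 0.0896), the 6 that could be left out being FAN ad libitum 10, FAN time-restricted 6, vehicle ad libitum 1 and 2, and vehicle time-restricted 2 and 3.

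Crat, which transfers acetyl groups between carnitine and coenzyme A, was 71.4, 69.4, 36.0 and 29.9 CPM in FAN ad libitum and 68.7, 88.3, 97.3 and 102.3 CPM in FAN time-restricted libraries. It was 151, 184, 171 and 189 CPM in vehicle ad libitum and 217, 276, 242 and 165 CPM in vehicle time-restricted libraries. All 8 FAN libraries lay below all 8 vehicle libraries. FAN lowered Crat under both regimens, by log2 changes of −1.75 ± 0.24 (SE, adjusted p = 6.61e-06) and −1.34 ± 0.24 (SE, adjusted p = 0.000235), the second being the largest fall of the 39 genes under time-restricted feeding. The feeding change in FAN was 0.78 ± 0.24 (SE, adjusted p = 0.0176) and the interaction of 0.41 ± 0.33 was not called (adjusted p = 0.487).

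The synthetases that activate fatty acids differed among themselves. Acsm5, a mitochondrial medium-chain synthetase, had the largest FAN change of all 39 genes under ad libitum feeding. Acsm5 was 21.2, 16.9, 17.1 and 9.72 CPM in FAN ad libitum and 78.2, 64.3, 47.3 and 76.3 CPM in FAN time-restricted libraries, beside 128, 125, 131 and 134 CPM and 169, 155, 155 and 168 CPM in the vehicle groups in the same order. No group overlapped another, and the order was FAN ad libitum, FAN time-restricted, vehicle ad libitum, vehicle time-restricted. Its log2 changes with FAN were −3.0 ± 0.19 (SE, adjusted p = 7.29e-10) and −1.28 ± 0.18 (SE, adjusted p = 2.2e-05), the feeding change in FAN was 2.03 ± 0.19 (SE, adjusted p = 5.1e-07), and the interaction was 1.72 ± 0.26 (SE, adjusted p = 0.000344).

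Acsm3, a second medium-chain synthetase, was 82.9, 64.9, 113 and 39.7 CPM in FAN ad libitum and 487, 405, 178 and 635 CPM in FAN time-restricted libraries. Vehicle libraries spread widely, with 206, 535, 509 and 489 CPM under ad libitum and 731, 491, 515 and 998 CPM under time-restricted feeding. FAN ad libitum libraries were the only group apart from all others, since FAN time-restricted 11 at 178 CPM and vehicle ad libitum 1 at 206 CPM were low within their groups. FAN lowered Acsm3 by a log2 change of −2.53 ± 0.41 (SE, adjusted p = 5.43e-05) under ad libitum feeding, and feeding raised it by 2.5 ± 0.41 (SE, adjusted p = 0.000265) in FAN. The interaction of 1.85 ± 0.55 (SE, adjusted p = 0.046) was not called when any one of 12 of the 16 libraries was left out (adjusted p = 0.0670 to 0.107), the 4 that could be left out being FAN ad libitum 10, FAN time-restricted 11, vehicle ad libitum 1 and vehicle time-restricted 4. In exons, 34.0% of its 50-letter words also occur in Eri2, which lies on the opposite strand, so that its counts could hold reads of Eri2.

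Acsl1, the main long-chain synthetase, was 85.5, 113, 71.6 and 41.8 CPM in FAN ad libitum and 93.3, 152, 146 and 202 CPM in FAN time-restricted libraries. It was 118, 84.4, 92.2 and 122 CPM in vehicle ad libitum and 152, 182, 208 and 136 CPM in vehicle time-restricted libraries. FAN and vehicle overlapped under both regimens, and vehicle time-restricted libraries all lay above vehicle ad libitum libraries. Acsl1 was not called for FAN under ad libitum feeding (−0.42 ± 0.26, adjusted p = 0.168), but was called lower in 3 of 20 alternatives: without FAN ad libitum 7 (−0.65, adjusted p = 0.0370), without FAN ad libitum 6 and 7 (−0.94, adjusted p = 0.0136) and with the transcript length trend removed (−0.78, adjusted p = 0.0105). Acsl1 rose with time-restricted feeding in FAN (0.93 ± 0.26, adjusted p = 0.0111). Acss1, which activates acetate in mitochondria, had log2 changes between −0.03 and 0.18 in the 4 group comparisons, none called.

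Acyl-CoA dehydrogenases carry out the first step of each cycle on chains of different length. Acadm, for medium chains, was 301, 267, 262 and 191 CPM in FAN ad libitum and 937, 918, 687 and 1074 CPM in FAN time-restricted libraries. Acadm in vehicle libraries was 799, 1204, 1209.5 and 1279 CPM under ad libitum and 1341, 1612, 1442 and 1484 CPM under time-restricted feeding. Every FAN ad libitum library was below every other library, and vehicle ad libitum 1 at 799 CPM fell within the FAN time-restricted range. FAN changed Acadm by −2.14 ± 0.18 (SE, adjusted p = 1.97e-08) under ad libitum and −0.70 ± 0.18 (SE, adjusted p = 0.00378) under time-restricted feeding, feeding changed it by 1.82 ± 0.18 (SE, adjusted p = 9.99e-07) in FAN and 0.39 ± 0.18 in vehicle (adjusted p = 0.759), and the interaction was 1.44 ± 0.25 (SE, adjusted p = 0.00118).

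The other dehydrogenases fell less with FAN under ad libitum feeding: Acad10 by a log2 change of −1.51, Acad11 −1.44, Acadl −1.25 and Acads, for short chains, −1.22 (adjusted p at most 1.46e-05). Acadvl, at the inner membrane for the longest chains, was the exception with −0.42 ± 0.21 (adjusted p = 0.0974), but its value was −0.59 and −0.58 and called when FAN ad libitum 6 or 7 was left out (adjusted p = 0.0287 and 0.0314), and 26.9% of its 50-letter words occur elsewhere, most in Dvl2. Under time-restricted feeding FAN lowered Acadl (−0.47) and Acad10 (−0.91), and values for Acads (−0.29), Acad11 (−0.27) and Acadvl (−0.47) were not called, although Acadvl was when FAN time-restricted 12 was left out (adjusted p = 0.0360). In FAN kidneys feeding raised Acad11 by 1.26, Acadl by 1.08, Acads by 1.07 and Acad10 by 0.72 on the log2 scale, the last lost without FAN ad libitum 10 or FAN time-restricted 12 (adjusted p = 0.0530 and 0.0541). Interactions were called for Acad11 (1.17), Acads (0.93) and Acadl (0.78), and Acad10 shares 17.3% of its 50-letter words with other genes, most of them with Acad12.

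The electron transfer flavoprotein, made of Etfa and Etfb, hands electrons from these dehydrogenases to Etfdh and on to ubiquinone. Etfa was 131, 118, 167 and 116 CPM in FAN ad libitum and 359, 313, 279.9 and 378 CPM in FAN time-restricted libraries. Its vehicle libraries held 383, 333, 344 and 410.0 CPM under ad libitum and 430.0, 355, 407 and 431 CPM under time-restricted feeding. FAN ad libitum libraries stood below all others, and the remaining 3 groups overlapped. FAN lowered Etfa under ad libitum feeding, with −1.47 ± 0.14 (SE, adjusted p = 7.88e-08), the time-restricted value of −0.29 ± 0.14 was not called (adjusted p = 0.102), and the interaction was 1.18 ± 0.20 (SE, adjusted p = 0.000836).

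Etfdh was 106, 99.8, 95.0 and 61.7 CPM in FAN ad libitum and 161, 182, 172 and 204 CPM in FAN time-restricted libraries, and 179, 165, 158 and 164 CPM in vehicle ad libitum and 213, 174, 197.5 and 253 CPM in vehicle time-restricted libraries. Again FAN ad libitum libraries alone stood apart. Etfdh fell with FAN under ad libitum feeding, with −0.88 ± 0.15 (SE, adjusted p = 7.65e-05), and rose with feeding in FAN, with 0.99 ± 0.15 (SE, adjusted p = 0.000111). Its interaction of 0.66 ± 0.22 was not called (adjusted p = 0.0649), but was without FAN ad libitum 6 or vehicle time-restricted 4 (adjusted p = 0.0426 and 0.0380). Etfb changed by −2.24 and −0.81 with FAN under ad libitum and time-restricted feeding and by 1.70 with feeding in FAN, all called, and 58.2% of its exon bases overlap Gm45233 on the same strand. The FAN call under time-restricted feeding was lost without FAN time-restricted 6, vehicle time-restricted 2 or vehicle time-restricted 3 (adjusted p = 0.0521 to 0.0604).

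Hadha and Hadhb are the subunits of the trifunctional protein, which carries out the last 3 steps on long chains, while Echs1, Hadh and Acaa2 act on shorter ones. Hadh was 221, 188, 199.4 and 168 CPM in FAN ad libitum and 507, 545, 532 and 628 CPM in FAN time-restricted libraries, beside 655, 612, 588 and 699 CPM in vehicle ad libitum and 828, 700.2, 747 and 693 CPM in vehicle time-restricted libraries. FAN ad libitum libraries lay far below the rest, and vehicle time-restricted libraries overlapped vehicle ad libitum 4 alone. The log2 changes of Hadh were −1.72 ± 0.13 (SE, adjusted p = 2.97e-09) and −0.43 ± 0.12 (SE, adjusted p = 0.00935) with FAN and 1.51 ± 0.13 (SE, adjusted p = 2.3e-07) with feeding in FAN, with an interaction of 1.29 ± 0.17 (SE, adjusted p = 0.000143).

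Hadha was 153, 156, 119.8 and 90.5 CPM in FAN ad libitum and 135, 162, 166 and 178 CPM in FAN time-restricted libraries, so that both FAN groups overlapped. Hadha in vehicle libraries was 178, 188, 189.5 and 193 CPM under ad libitum and 206, 272, 243 and 237 CPM under time-restricted feeding, each group above the FAN group of the same regimen. FAN lowered Hadha by similar log2 amounts under both regimens, −0.53 ± 0.15 (SE, adjusted p = 0.00547) and −0.58 ± 0.15 (SE, adjusted p = 0.00473), but the first was 0.18 (adjusted p = 0.337) with library size scaling, and feeding in FAN gave 0.31 ± 0.15 (adjusted p = 0.13). Its interaction was −0.05 ± 0.21 (adjusted p = 0.92), against 1.29 for Hadh and 0.78 for Echs1. Hadhb changed by −0.48 with FAN under ad libitum feeding (0.21 and not called with library size scaling), and by 0.64 with feeding in FAN. Echs1 changed by −1.06 and 0.82 and Acaa2 by −1.25 and 1.44 in these 2 comparisons, and the FAN values under time-restricted feeding were not called for Hadhb (−0.17), Echs1 (−0.28) and Acaa2 (−0.48). Echs1 was called lower there without FAN time-restricted 11 or 12 or vehicle time-restricted 2, and Acaa2 without FAN time-restricted 11 or vehicle time-restricted 4 (adjusted p = 0.0178 to 0.0476), while the Acaa2 interaction was called without FAN time-restricted 6 (adjusted p = 0.0291).

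Eci1, Eci2, Ech1 and Decr1 rearrange or reduce the double bonds of unsaturated chains so that they can enter the cycle. Eci2 was 63.2, 53.4, 68.1 and 62.2 CPM in FAN ad libitum and 134, 171, 175 and 153 CPM in FAN time-restricted libraries. It was 148, 164, 159.8 and 177 CPM in vehicle ad libitum and 228, 244, 228 and 233 CPM in vehicle time-restricted libraries. FAN ad libitum libraries were lowest and vehicle time-restricted libraries highest without overlap, and FAN time-restricted and vehicle ad libitum libraries overlapped between them. Eci2 changed by −1.40 ± 0.11 (SE, adjusted p = 8.79e-09) and −0.56 ± 0.11 (SE, adjusted p = 0.000546) with FAN, and by 1.36 ± 0.11 (SE, adjusted p = 2.18e-07) with feeding in FAN, with an interaction of 0.84 ± 0.16 (SE, adjusted p = 0.00209). Ech1 had the largest fall of the 4 with FAN under ad libitum feeding (−1.92), and Eci1 the smallest (−1.01). All 4 rose with feeding in FAN, by 1.36 to 1.56 on the log2 scale, and under time-restricted feeding Eci1 showed −0.05 with FAN (adjusted p = 0.818) while Ech1 (−0.78) and Decr1 (−0.39) fell, Decr1 not without FAN time-restricted 6 (adjusted p = 0.0876).

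**Figure D4:**
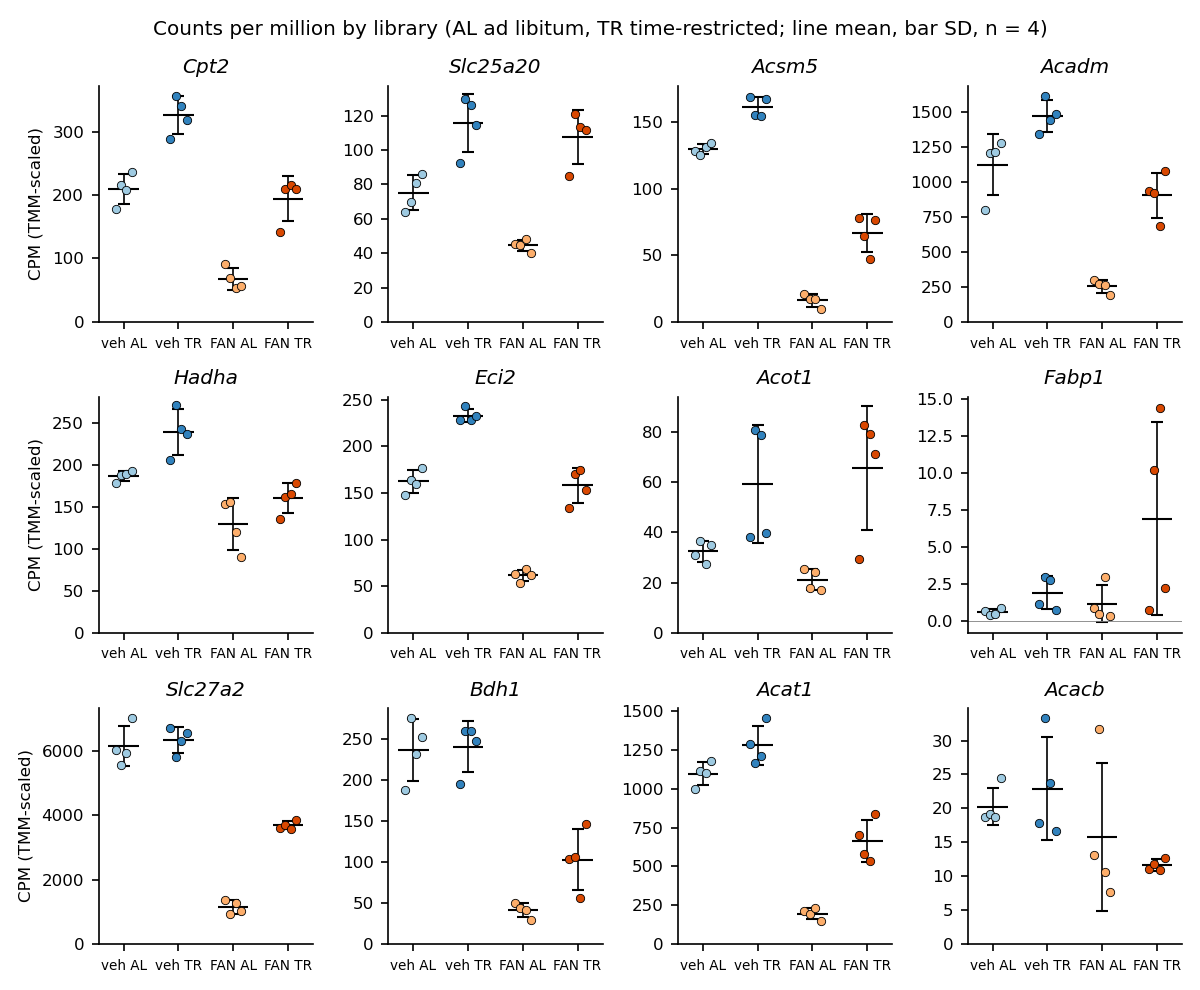
CPM of 12 of the genes (y axis, linear) in each library of the 4 groups (x axis, veh for vehicle), with the group mean and SD. FAN ad libitum points lie lowest for Cpt2, Slc25a20, Acsm5, Acadm, Eci2, Acot1, Slc27a2, Bdh1 and Acat1, the last points being close to those of other groups for Acot1 and Bdh1. For Acot1, 2 vehicle time-restricted and 3 FAN time-restricted points stand high.

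Thioesterases split acyl-CoA back into fatty acid and coenzyme A. Acot1 is cytosolic and Acot2 mitochondrial, and both are known PPAR-alpha targets. Acot1 was 25.3, 17.9, 24.1 and 17.1 CPM in FAN ad libitum and 29.3, 82.6, 79.1 and 71.3 CPM in FAN time-restricted libraries. Acot1 in vehicle libraries was 31.1, 36.4, 27.3 and 35.1 CPM under ad libitum and 38.1, 80.6, 78.6 and 39.8 CPM under time-restricted feeding. Vehicle time-restricted 2 and 3 and FAN time-restricted 10, 11 and 12 stood high, while FAN time-restricted 6 and vehicle time-restricted 1 and 4 stayed near the ad libitum libraries. Feeding changed Acot1 by 1.63 ± 0.30 (SE, adjusted p = 0.00064) in FAN and 0.87 ± 0.29 in vehicle (adjusted p = 0.585), the interaction of 0.76 ± 0.41 was not called (adjusted p = 0.28), and neither FAN change was called (−0.62 and 0.14). Acot2 had feeding changes of 1.46 in FAN and 0.84 in vehicle and fell with FAN under ad libitum feeding (−0.69 ± 0.23, adjusted p = 0.0158), but not without vehicle ad libitum 4 (adjusted p = 0.0597) or with library size scaling (0.02, adjusted p = 0.952). Acot1 and Acot2 share 19.2% and 27.7% of their 50-letter words with other genes, mostly with each other, so that reads could be split between them.

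Acot12, a cytosolic acetyl-CoA hydrolase with a PPAR-like match in its promoter, was 72.9, 48.5, 51.7 and 41.0 CPM in FAN ad libitum and 209, 232, 204 and 287 CPM in FAN time-restricted libraries. It was 225, 239, 246 and 238 CPM in vehicle ad libitum and 416, 279, 294 and 411 CPM in vehicle time-restricted libraries. FAN ad libitum libraries stood far below all others, and vehicle time-restricted 1 and 4 were highest, the 2 that were low in that group for Acot1. Its feeding change in FAN was 2.12 ± 0.18 (SE, adjusted p = 3.01e-07), with an interaction of 1.56 ± 0.25 (SE, adjusted p = 0.000576) and FAN changes of −2.15 and −0.59, both called. Acot13 followed with FAN changes of −1.92 and −0.61 and a feeding change in FAN of 1.62, all called.

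Uptake and binding genes ranged from −2.42 (Slc27a2) to 0.86 (Fabp1) with FAN under ad libitum feeding. Slc27a2 was 1366, 928, 1278 and 1022 CPM in FAN ad libitum and 3617, 3703, 3579 and 3861 CPM in FAN time-restricted libraries, against 6029, 5572, 5958 and 7039 CPM in vehicle ad libitum and 6708, 5808, 6305 and 6566 CPM in vehicle time-restricted libraries. The FAN time-restricted libraries lay between both others within a narrow range, and the vehicle groups overlapped. Slc27a2 changed by −2.42 ± 0.16 (SE, adjusted p = 7.32e-10) and −0.78 ± 0.15 (SE, adjusted p = 0.000398) with FAN and by 1.68 ± 0.15 (SE, adjusted p = 4.81e-07) with feeding in FAN but 0.05 ± 0.15 in vehicle (adjusted p = 0.997), with an interaction of 1.64 ± 0.21 (SE, adjusted p = 0.000103). Its close relatives Slc27a1 and Slc27a4 were not called in any comparison, with FAN changes of −0.17 and −0.10 under ad libitum feeding, although both were higher with library size scaling. Fabp3, the heart-type binding protein, fell with FAN under both regimens (−1.16 and −0.59) and rose with feeding in FAN (0.70), and 37.3% of its 50-letter words occur elsewhere, most in Fabp3-ps1. Without FAN time-restricted 11 or vehicle time-restricted 4, Slc27a1 was called lower with FAN under time-restricted feeding (adjusted p = 0.0165 and 0.0237).

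Fabp1, which binds fatty acids in the cytosol and has a PPAR-like match in its promoter, was 0.859, 0.431, 3.0 and 0.335 CPM in FAN ad libitum and 0.7, 10.2, 14.4 and 2.23 CPM in FAN time-restricted libraries. Vehicle libraries held 0.672, 0.421, 0.479 and 0.883 CPM under ad libitum and 1.14, 2.98, 2.79 and 0.733 CPM under time-restricted feeding. The highest values were those of FAN time-restricted 10 and 11, then of FAN ad libitum 10 and of vehicle time-restricted 2 and 3, and the groups overlapped. Feeding changed Fabp1 by 2.67 ± 0.82 (SE, adjusted p = 0.0216) in FAN and 1.70 ± 0.90 in vehicle (adjusted p = 0.827). The call in FAN was lost when any one of FAN ad libitum 6, 7 or 12 or FAN time-restricted 10 or 11 was left out (adjusted p = 0.0539 to 0.0745), and once the sheet position entered the fit (1.81, adjusted p = 0.119). The FAN change under time-restricted feeding was 1.83 ± 0.79 (adjusted p = 0.0761) and 2.21, called, without FAN time-restricted 6 (adjusted p = 0.0181).

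The 3 genes of ketone body use had a median log2 change of −2.49 with FAN under ad libitum feeding, the lowest of the 10 roles. Bdh1, which oxidises β-hydroxybutyrate, was 50.3, 43.6, 41.9 and 29.3 CPM in FAN ad libitum and 102.96, 106, 55.4 and 146 CPM in FAN time-restricted libraries. Its vehicle libraries held 187, 275, 231 and 252 CPM under ad libitum and 195, 259.8, 259 and 248 CPM under time-restricted feeding. The vehicle groups covered the same range, both FAN groups lay below it, and FAN time-restricted 11 came near the FAN ad libitum libraries. FAN lowered Bdh1 by log2 changes of −2.52 ± 0.23 (SE, adjusted p = 5.67e-08) and −1.23 ± 0.23 (SE, adjusted p = 0.000276), and feeding raised it in FAN by 1.31 ± 0.23 (SE, adjusted p = 0.000311).

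Oxct1, which moves coenzyme A from succinyl-CoA to acetoacetate, was 376, 351, 580.3 and 322 CPM in FAN ad libitum and 982, 760.1, 714 and 1208 CPM in FAN time-restricted libraries, and 1157, 1455, 1258 and 1326 CPM in vehicle ad libitum and 1192, 1122, 1372 and 1549.6 CPM in vehicle time-restricted libraries. Only the FAN ad libitum libraries lay apart from all others. Oxct1 changed with FAN by −1.67 ± 0.20 (SE, adjusted p = 1.15e-06) under ad libitum feeding, and its time-restricted change of −0.51 ± 0.20 (SE, adjusted p = 0.0416) was lost when any one of FAN time-restricted 6, 10 or 11 or vehicle time-restricted 1, 3 or 4 was left out (adjusted p = 0.0512 to 0.123). Acat1, the mitochondrial thiolase that splits acetoacetyl-CoA, was 214, 192, 231 and 148 CPM in FAN ad libitum and 705, 583, 538 and 838 CPM in FAN time-restricted libraries, and 1001, 1115, 1101 and 1180.0 CPM in vehicle ad libitum and 1289, 1167, 1209.9 and 1457 CPM in vehicle time-restricted libraries. All 8 FAN libraries were below all 8 vehicle libraries, and the FAN groups did not overlap. FAN changed Acat1 by −2.49 ± 0.17 (SE, adjusted p = 1.23e-09) under ad libitum and by −0.94 ± 0.16 (SE, adjusted p = 0.000138) under time-restricted feeding. Interactions of the 3 genes were 1.29 for Bdh1, 1.16 for Oxct1 and 1.54 for Acat1, with adjusted p of 0.0147, 0.0128 and 0.00031.

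Malonyl-CoA, made by Acacb at the mitochondrial surface and removed by Mlycd, blocks the entry of long chains through Cpt1. Mlycd was 26.6, 23.1, 19.9 and 19.1 CPM in FAN ad libitum and 41.9, 60.8, 59.9 and 56.0 CPM in FAN time-restricted libraries, and 66.2, 83.0, 66.7 and 94.5 CPM in vehicle ad libitum and 99.8, 109.7, 98.6 and 77.6 CPM in vehicle time-restricted libraries. All FAN libraries lay below all vehicle libraries. It changed by −1.81 ± 0.16 (SE, adjusted p = 2.58e-08) and −0.82 ± 0.16 (SE, adjusted p = 0.00036) with FAN and by 1.30 ± 0.16 (SE, adjusted p = 7.97e-06) with feeding in FAN. Acacb was 13.1, 31.8, 10.6 and 7.66 CPM in FAN ad libitum and 11.1, 11.8, 10.9 and 12.7 CPM in FAN time-restricted libraries, and 18.8, 19.1, 18.7 and 24.5 CPM in vehicle ad libitum and 17.8, 33.4, 23.8 and 16.7 CPM in vehicle time-restricted libraries. FAN ad libitum 7 was the second highest of all 16 libraries, while the other 3 of its group lay below the vehicle range. With FAN, Acacb showed −0.35 ± 0.33 under ad libitum feeding (adjusted p = 0.369), or −0.95 and called without FAN ad libitum 7 (adjusted p = 0.00122), and it fell under time-restricted feeding by a log2 change of −0.99 ± 0.34 (SE, adjusted p = 0.0249), a call lost without FAN time-restricted 6 or 10 or vehicle time-restricted 2 (adjusted p = 0.0505 to 0.0872).

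Other genes of the pathway, from lists of known members, followed in part. Of 40 further fatty acid oxidation and ketone genes 34 were tested, and with FAN under ad libitum feeding 20 fell and 6 rose, with a median of −0.70. Cpt1a, the rate-limiting carnitine acyltransferase of the outer membrane, was 279, 226, 192 and 156 CPM in FAN ad libitum and 310.1, 390.4, 371 and 419 CPM in FAN time-restricted libraries, and 366, 309, 294 and 341 CPM and 503, 399.8, 449.6 and 469 CPM in the vehicle groups in the same order. It fell by 0.62 ± 0.16 on the log2 scale with FAN under ad libitum feeding (adjusted p = 0.00245), though it showed 0.09 with library size scaling (adjusted p = 0.626), and rose by 0.81 ± 0.16 with feeding in FAN (adjusted p = 0.000917). The synthetase Acsm1 (−3.05) and the isomerase Eci3 (−3.02) fell most. The 6 that rose were Cpt1c (1.86), Acsf2 (1.74), Acss3 (1.56), Acsl4 (1.49), Slc27a3 (1.22) and Acsl5 (0.52). Under time-restricted feeding 15 fell and 5 rose with FAN, with a median of −0.50. With feeding in FAN 20 rose and none fell, with a median of 0.64, and 12 had a called interaction above 0.

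Peroxisomal β-oxidation, which shortens very long and branched chains, fell in 15 of 18 genes with FAN under ad libitum feeding, with a median of −1.5. Acox2 (−3.41), Amacr (−3.05) and Pecr (−2.68) fell most, 9 of 18 fell under time-restricted feeding, and 15 of 18 rose with feeding in FAN, led by Ehhadh (2.32). All 38 nuclear genes of the respiratory chain fell with FAN under ad libitum feeding, with a median of −1.26, and all 38 rose with feeding in FAN, with a median of 1.07. Under time-restricted feeding 18 of the 38 were lower with FAN. All 18 citric acid cycle genes fell with FAN under ad libitum feeding and 15 rose with feeding in FAN. The citric acid cycle median was −1.18, the median of the 39 genes was −1.33, and that of the proximal tubule markers was −2.26, with no test between lists.

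Among 19 regulators of the pathway, 11 fell and 2, Ppard (1.0) and Prkaa1 (0.48), rose with FAN under ad libitum feeding. Klf15 fell by 2.58 ± 0.23, Hnf4a by 1.98 ± 0.16 and Sirt3 by 1.58 ± 0.16 on the log2 scale (adjusted p = 3.41e-08, 9.46e-09 and 1.25e-07), and all 3 rose with feeding in FAN, by 1.25, 1.07 and 1.04. Ppara, which encodes PPAR-alpha, showed 0.02 ± 0.34 with FAN under ad libitum feeding (adjusted p = 0.959), but −0.95, called, without FAN ad libitum 6 and 7 (adjusted p = 0.0155). Its feeding change in FAN was 0.37 ± 0.34 (adjusted p = 0.434), and 1.28, called, without these libraries (adjusted p = 0.00847). Ppargc1a, a coactivator that drives mitochondrial gene expression, showed −0.30 ± 0.22 with FAN under ad libitum feeding (adjusted p = 0.248) and 0.11 ± 0.22 with feeding in FAN (adjusted p = 0.725), the latter being −0.54 with library size scaling.

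**Figure D5:**
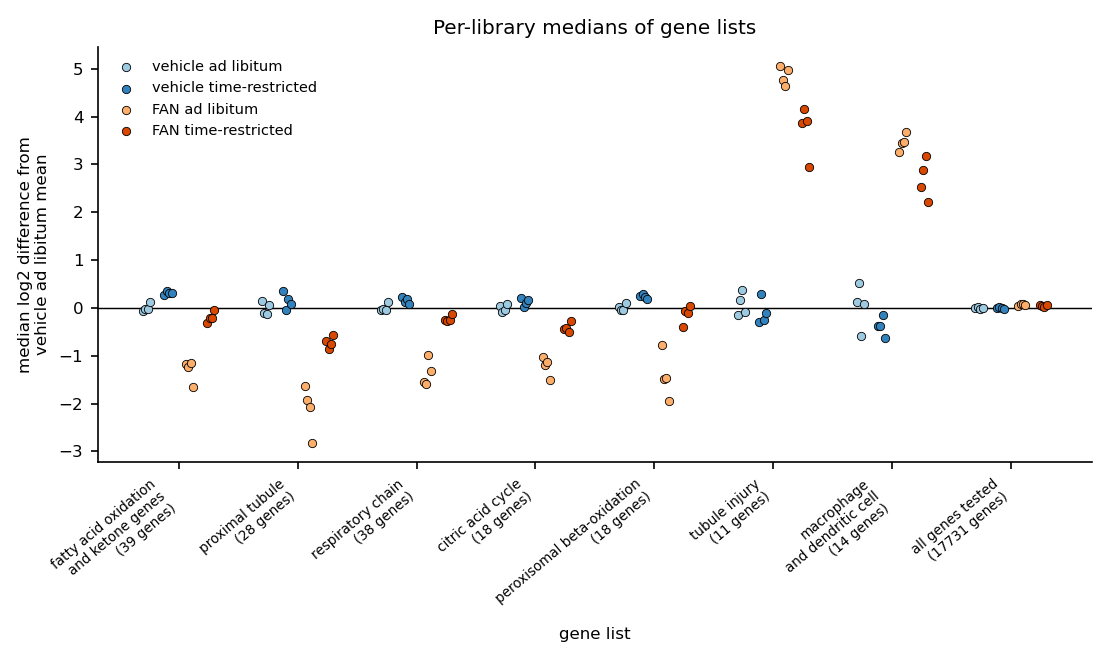
Median log2 difference from the vehicle ad libitum mean (y axis) over the genes of each list (x axis), 1 point per library and list, coloured by group. For the 39 genes the FAN ad libitum libraries lie between −1.65 and −1.16, FAN time-restricted between −0.31 and −0.04 and vehicle time-restricted between 0.28 and 0.36, while the median of all genes stays between −0.02 and 0.09.

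Libraries of a group were not alike in these genes. FAN time-restricted 6 was the lowest of its group for 24 of the 39 genes, among them Cpt2, Slc25a20, Acaa2, Ech1, Acot1 and Fabp1, and FAN time-restricted 12 the highest for 21. FAN time-restricted 11 was the lowest for 14 genes, including Acsm3, Acsm5, Acadm and the 3 ketone body genes, and the highest for 9, including Cpt2, Acaa2, Eci2, Ech1, Decr1 and Fabp1. FAN ad libitum 12 was lowest for 29 of the 39 genes. In vehicle time-restricted kidneys, library 2 was highest for 19 genes, including Cpt2, Slc25a20, Acot1, Acot2 and Fabp1, and lowest for 12, including Acsm3, Slc27a2, Oxct1 and Acat1.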

How the data were processed

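The data are RNA-seq of kidney, as 16 libraries in 4 groups of 4 that follow the labels. The authors deposited 1 table of whole-number counts per gene, unnormalised. The submitters' processing notes name FastQC 0.11.5, STAR 2.5.3a, edgeR 3.26.7 and mm10 without their roles. The labels' protocols name a stranded mRNA kit, but the strand setting of the counting is not given in the sources used here, so reads of overlapping or near-identical genes may be shared. Library totals of 12450812 to 33976660 counts set a floor of 3 counts, or 0.0883 to 0.241 CPM, for counting error only. The table has 71 genes without a symbol, and 52029 of its 52338 identifiers matched GENCODE M21, which gave lengths and GRCm38 positions.

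Counts were filtered with filterByExpr (minimum count 10), scaled by TMM and tested with edgeR 4.0.16 in R 4.3.3 (robust quasi-likelihood, 1 model of 4 groups) with Benjamini-Hochberg adjustment over 17731 genes and a threshold of 0.05. The SE is the log2 change divided by the square root of F. The script was tested on simulated data, for FAN against vehicle under ad libitum feeding. Of genes given an absolute log2 change of 1, 67.7% were called, and 94.7% of those given 2. There were 10 false calls among 17221 genes. Smaller changes, such as most of those with feeding in vehicle, were not simulated. Alternatives were library size scaling, 2 other filters, fits of the compared groups alone, each library left out, a replicate block, the sample sheet position, mitochondrial or globin counts removed, a length trend removed, DESeq2 1.42.0 and voom in limma 3.58.1. Leaving out FAN ad libitum 6 and 7 together and the latest or middle sheet positions alone were chosen after seeing the data. Positions were inferred from the S number in the column names, and the labels do not say what it marks. Split at gaps in these numbers, they fall in 3 ranges: early (FAN ad libitum 6 and 7, FAN time-restricted 6, vehicle 1 and 2), middle (vehicle 3 and 4) and late (the other FAN libraries). Replicates differed beyond counting noise (chi-square per gene at least 16.1), so none was merged.

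The 39 genes and all other lists were chosen with earlier results of these data known. Library values are given for the 3 called genes with the largest change each way in each comparison, the 6 with the smallest interaction p and 14 listed genes. Other pathway genes are named as the 3 largest called changes per list. Cpt1c, Acsf2, Acss3, Acsl5, Ppard, Prkaa1 and Slc13a1 were named after their values were seen. Promoters come from RefSeq on GRCm38.p6. Protein sequences were not used here.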

Additional observations from a re-analysis of the deposited data

Results flagged for a closer look

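In 6 of 160 cases tested, the 39 genes and their sum in each of the 4 groups, 1 library stood apart from the other 3 by Dixon's test at its 95% critical value, which chance alone gives in about 1 of 20. Cpt2 was 141 CPM in FAN time-restricted 6, against 209 to 215 CPM in the other 3. Ech1 was 458 CPM in the same library, against 632 to 658 CPM. In vehicle ad libitum 1, Acsm3 was 206 CPM (489 to 535 CPM in the others), Acadm 799 CPM (1204 to 1279 CPM) and Acss1 132 CPM (66.6 to 73.7 CPM). Acacb was 24.5 CPM in vehicle ad libitum 4, against 18.7 to 19.1 CPM.

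For 23 of the 39 genes the feeding change differed between FAN and vehicle kidneys by edgeR's interaction term, called above 0 in 7.76% of all genes. With a replicate block 14 of the 39 were called above 0, beside 774 of all 17731 genes. In that fit FAN ad libitum 7 and FAN time-restricted 11, which have no partner of the same number, did not inform the feeding change. With library size scaling 10 were above and 3 below 0, beside 504 and 6127 of all genes. On the log2 scale the interaction was 1.85 for Acsm3, 1.72 for Acsm5, 1.64 for Slc27a2, 1.56 for Acot12, 1.54 for Acat1, 1.44 for Etfb and 1.44 for Acadm. It was 1.31 for Acot13, 1.29 for Hadh, 1.29 for Bdh1, 1.18 for Etfa, 1.17 for Acad11, 1.16 for Oxct1 and 1.14 for Ech1. The lowest called values were 0.99 for Mlycd, 0.96 for Eci1, 0.94 for Decr1, 0.93 for Acads, 0.87 for Cpt2, 0.84 for Eci2, 0.78 for Acadl, 0.78 for Echs1 and 0.65 for Slc25a20.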

How the results depend on the processing

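Library size scaling, in place of TMM, moved the median log2 change of all genes from 0.06 to 0.76 for FAN under ad libitum feeding. There it gave 3 higher members (Acss1 0.66, Slc27a1 0.54 and Slc27a4 0.61), beside 10823 of all 17731 genes, and a member median of −0.64. Values of opposite sign were those of Hadha (0.18), Hadhb (0.21), Acot2 (0.017) and Cpt1a (0.087). The member median was −0.38 for FAN under time-restricted feeding. For feeding in FAN it was 0.65, with 2 members and 10512 of all 17731 genes lower, and Ppargc1a was −0.54 and Acsl4 −0.59. The interaction had 10 members higher and 3 lower, beside 504 and 6127 of all 17731 genes, with a member median of 0.27. Summed member levels were 6352 CPM in FAN ad libitum, 11011 CPM in FAN time-restricted, 14268 CPM in vehicle ad libitum and 16104 CPM in vehicle time-restricted kidneys. With mitochondrial genome counts removed, the sums were 5466, 14657, 20038 and 23413 CPM in FAN ad libitum, FAN time-restricted, vehicle ad libitum and vehicle time-restricted kidneys, since the totals are smaller.

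The deviations of same-numbered libraries from their group means had correlations of −0.25 to 0.179, against −0.284 to 0.325 for libraries of different number. With 4 libraries per group these values cannot settle whether equal numbers mark pairs. The replicate block gave 14 member interactions above 0 in place of 23, beside 774 in place of 1376 over all 17731 genes. FAN ad libitum 7 and FAN time-restricted 11 have no partner of the same number, so in that fit they did not inform the feeding change. The drop therefore mixes the pairing with the loss of these libraries. The sheet position covariate, which is largely confounded with FAN, gave 11 members lower with FAN under time-restricted feeding, beside 1949 of all 17731 genes. The earliest positions alone gave a median of 0.45 for feeding in vehicle, and the latest alone 1.46 for feeding in FAN. DESeq2 and voom each called 3 members for feeding in vehicle, and voom gave a median of −1.22 for FAN under ad libitum feeding and 1 member lower (Slc27a4) for feeding in FAN. Leaving out 1 library gave 0 to 1 members higher with FAN under time-restricted feeding, the 1 being Fabp1 without FAN time-restricted 6, and interaction medians of 0.80 to 1.01. Without FAN ad libitum 6 and 7, Ppara was −0.95 for FAN under ad libitum feeding. The cause was not tested for the other changes. With 4 libraries per group, values near the threshold moved with single libraries, and Fabp1 is limited by its low counts.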
